A study of Mus musculus with 16 samples.

Results

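The 9 genes described here encode proteins by which white blood cells hold on to vessel walls, to matrix and to each other: the counter-receptors Icam1 and Vcam1, the integrin subunits Itga4, Itgal, Itgam, Itgax and Itgb2, the selectin ligand Selplg, and the hyaluronan receptor Cd44. They were taken by gene symbol from a count table of 50508 genes, and all 9 were present and passed the filter on low counts that kept 13856 genes for testing. Monocytes grown from the bone marrow of 4 mice, all wild type, had been cultured with M-CSF, the growth factor that turns monocytes into macrophages, and their messenger RNA had been sequenced. The cells of every mouse were split over 4 treatments of 24 h: PFM037 with TNF, TNF, PFM037, and vehicle, all of them with M-CSF, which gives 4 libraries per group and 16 in all. TNF is an inflammatory cytokine, and PFM037 is a compound that the labels give by code name only. The sources used here give neither its dose and target nor the strain, sex and age of the mice. Levels are CPM, counts scaled to a fixed library total by the TMM method, and are given as mean ± SD over the 4 mice of a group.

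A leukocyte leaves the blood in steps. Selectins on the vessel wall catch Selplg and other sugar-bearing ligands and let the cell roll; activated integrins then arrest it on members of the immunoglobulin family. Itgb2 encodes the shared beta chain of the leukocyte integrins, and pairs with the alpha chain of Itgal (LFA-1), Itgam (Mac-1, a complement receptor and common myeloid marker) or Itgax (CD11c, much used as a dendritic cell marker). LFA-1 and Mac-1 bind the product of Icam1. Itga4 pairs with Itgb1 to bind the product of Vcam1, and with Itgb7 to bind the gut addressin. Icam1 and Vcam1 are best known from inflamed endothelium, where TNF induces both, and macrophages also make them.

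The cells carried the RNA of the labelled cell type. All 9 monocyte and macrophage markers on the list used averaged at least 1 CPM, with Lyz2 at 27600 CPM, Csf1r at 1810 CPM and Adgre1 at 862 CPM over the 16 libraries. Neutrophil markers were also present at a summed 7550 to 20100 CPM, and all 9 on their list averaged at least 1 CPM. Of the 9 markers of mast cells, basophils and eosinophils 8 did so, with the list at a summed 97.3 to 463 CPM. An average of 1 CPM thus does not tell these cell types apart. Endothelial markers summed to 11.3 to 42.6 CPM, mostly from Kdr, and Cldn5 was at 0 in every library, and stromal markers summed to 2.37 to 8.81 CPM. Library totals ran from 15092524 to 18694616 counts for PFM037+TNF, from 9403232 to 21017905 for TNF, from 11142804 to 18845228 for PFM037 and from 14114703 to 20125134 for vehicle. The least counted member value was 154 counts, for Itgax in a TNF library. In bulk RNA, fewer cells of a type and less RNA per cell cannot be told apart, and the values describe RNA, not protein at the cell surface.

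Scaled per kilobase of exon, the chains of Mac-1 led in every group. In vehicle, Itgb2 stood at 464 ± 39.7 and Itgam at 383 ± 47.4 CPM per kilobase, and their ranges overlapped. Cd44 followed at 81.0 ± 8.94, then Selplg at 56.4 ± 7.65 and Itgal at 52.2 ± 14.8, whose ranges overlapped each other. Icam1 (12.4 ± 2.52) and Itga4 (11.1 ± 5.63) overlapped as well, and so did Vcam1 (3.96 ± 1.55) and Itgax (3.95 ± 0.37), the lowest of the 9. With TNF, Icam1 reached 30.1 ± 3.28 CPM per kilobase and its range no longer overlapped that of Itga4, at 14.7 ± 6.80. The length used matters for the middle of the order. By coding length instead of exon length, Itga4 was above Icam1 in vehicle, at 50.1 against 33.5 CPM per kilobase, with overlapping ranges, and with TNF Icam1 (81.5) and Itga4 (66.5) overlapped as well.

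**Figure D1:**
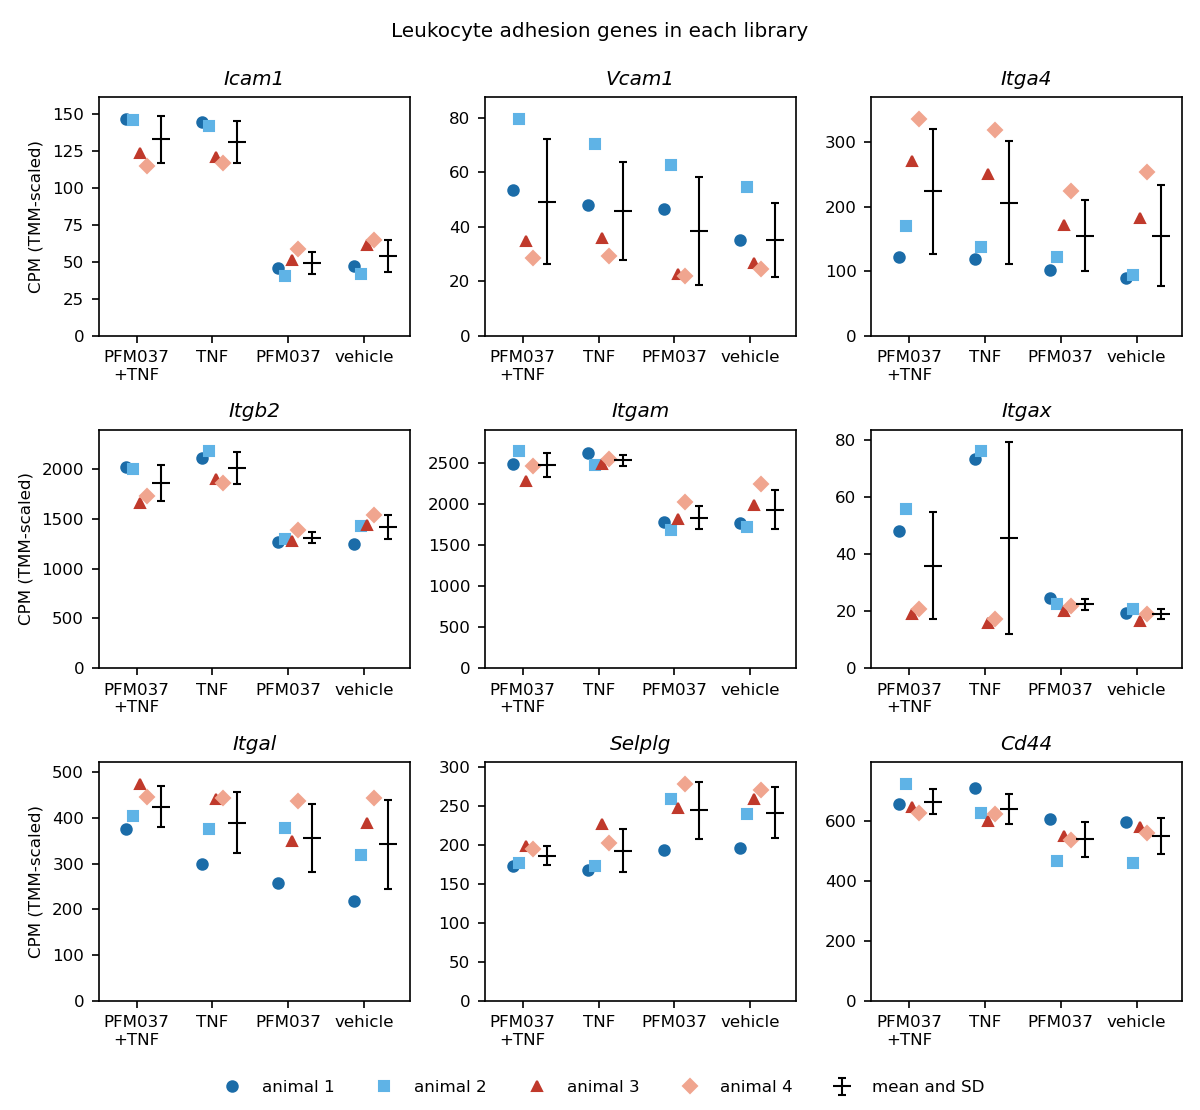
CPM (linear axis from 0) of the 9 genes in each of the 16 libraries, by treatment, with a symbol for each mouse and a bar for mean and SD (n = 4). Icam1, Itgb2, Itgam and Cd44 are higher in all TNF libraries than in all vehicle libraries; Vcam1 and Itga4 are spread mainly by mouse, and Itgax is high with TNF in animals 1 and 2 only.

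TNF was set against vehicle to see which adhesion transcripts it changes in cells already exposed to M-CSF. Icam1 rose 2.44-fold, and both chains of Mac-1 rose with it, Itgb2 by 1.42-fold and Itgam by 1.31-fold. Itgax had an estimate as large as that of Icam1, at 2.43-fold, but with a far wider spread, and it was called only in a model that compares each mouse with itself (2.12-fold). In that model Vcam1 also rose, by 1.30-fold, and Itga4, by 1.34-fold, and Selplg fell to 0.797 of its vehicle level. Without a term for the mouse, edgeR's quasi-likelihood test with Benjamini-Hochberg adjustment called 3 of the 9 genes at 0.05, all higher, against 2.68% of all genes tested. With the mouse as a block it called 7, against 19.4% of all genes, and of these 6 were higher, against 9.59% of all genes, and 1 lower, against 9.84%. The median log2 change of the 9 genes was 0.39 without the block, against -0.02 over all genes, and 7 of the 9 had the same sign in all 4 mice, against 40.8% of all genes. The 9 genes were chosen with earlier results of these data known, so these shares are a description only.

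Icam1, the counter-receptor for LFA-1 and Mac-1, was at 145, 142, 121 and 117 CPM with TNF in animals 1 to 4, against 47.2, 42.1, 61.6 and 64.8 CPM with vehicle. The groups did not overlap, and the highest vehicle library was far below the lowest TNF library. The log2 change was 1.28 (SE 0.15, adjusted p = 0.000256, edgeR), or 1.30 with the block (SE 0.14, adjusted p = 7.42e-06), and it was called under every alternative tried. Within mice the log2 difference was 1.62, 1.75, 0.97 and 0.86 in animals 1 to 4. Animals 1 and 2 thus had less Icam1 RNA than animals 3 and 4 with vehicle and more with TNF. Icam1 lies on GRCm38 chromosome 9 at 21015985 to 21028817 (plus strand), and an annotated antisense gene overlaps 511 of its exon bases.

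Its promoter is printed because Icam1 changed with TNF under every alternative tried and a kappa B site, the motif of the NF-kB factors that TNF activates, is known in the promoter of human ICAM1. The window is RefSeq's for GRCm38.p6, from 250 bases before to 50 after the start, chr9:21015690-21015989 (plus strand). Capitals mark, from left to right, GGAAATTCC (the core of the human kappa B site), a match to the STAT motif TTCNNNGAA, and TATAAA, each searched on both strands.
Icam1: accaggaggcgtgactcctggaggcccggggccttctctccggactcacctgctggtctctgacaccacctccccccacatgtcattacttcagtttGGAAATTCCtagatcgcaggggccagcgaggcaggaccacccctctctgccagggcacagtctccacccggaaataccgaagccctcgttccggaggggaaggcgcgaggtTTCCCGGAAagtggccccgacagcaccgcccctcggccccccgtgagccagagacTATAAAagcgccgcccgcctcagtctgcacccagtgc
GGAAATTCC was found in 0.317% of 32851 RefSeq promoter windows, TTCNNNGAA in 8.298% and TATAAA in 13.616%. The TATA match lay 13 to 18 bases after RefSeq's start, and ended 27 bases before the gene start that GENCODE annotates. The sources thus place the start differently, and the distance of each match depends on the start used. The human kappa B core had no match in the windows of Itga4, Itgam, Itgax and Cd44, the other members with a RefSeq window. Of these, Itga4, Itgam and Itgax were called for TNF against vehicle in the model with the block. A second kappa B motif, that of the immunoglobulin kappa enhancer, was searched too. It matched in none of the 5 members' windows, Icam1 included, and in 0.155% of all promoter windows. All matches are of letters, and no binding was measured.

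The beta chain gene Itgb2 was at 2110, 2180, 1900 and 1860 CPM with TNF in animals 1 to 4, against 1250, 1430, 1440 and 1540 CPM with vehicle. Itgam, its most abundant partner among the members, was at 2620, 2470, 2490 and 2540 CPM with TNF, against 1770, 1720, 1980 and 2240 CPM with vehicle. Neither gene's groups overlapped, and in each mouse both genes were higher with TNF. The log2 change of Itgb2 was 0.51 (SE 0.10, adjusted p = 0.0121, edgeR; 0.50 and 0.000419 with the block). That of Itgam was 0.39 (SE 0.10), and its adjusted p of 0.0498 lay at the threshold in edgeR without the block, against 0.00188 with it. Without the block, the Itgam call was lost when any TNF library or vehicle 1, 2 or 3 was left out (adjusted p up to 0.165), while Itgb2 was called in all 8 such fits. Neither gene was called without the block when no filter was used or when only TNF and vehicle libraries were fitted (for Itgb2, adjusted p up to 0.0964). With scaling by library size alone, again without the block, Itgb2 was called and Itgam was not. For both genes the differences within mice were larger in animals 1 and 2 than in animals 3 and 4, at 0.75, 0.61, 0.40 and 0.27 for Itgb2 and 0.57, 0.52, 0.34 and 0.18 for Itgam in that order. The summed monocyte and macrophage markers, 9 genes, were likewise higher with TNF in each mouse. They were at 41100, 34300, 39300 and 42600 CPM with TNF in animals 1 to 4, against 25700, 24600, 31900 and 34900 CPM with vehicle. The ranges of the groups overlapped. Lyz2 alone averaged 27600 CPM over the 16 libraries, where the sum averaged 33000 CPM, so the sum mostly follows 1 gene. The part of these markers in the changes of Itgb2 and Itgam was not tested.

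Itgal, Itgam and Itgax lie on GRCm38 chromosome 7, where only 11055 bases separate the end of Itgam (128062640 to 128118491) from the start of Itgax (128129547 to 128150657, both plus strand), with Itgal at 127296260 to 127335138. Itgb2 is on chromosome 10 at 77530252 to 77565708. A second protein-coding gene model on the same strand shares 3450 exon bases with Itgam and was absent from the table, so the split of reads between them is uncertain. The promoters of the 2 neighbours are shown because they differ in the short motif GAGGAA, a core recognised by the myeloid factor PU.1, marked in capitals on either strand (TTCCTC on the other). They span chr7:128062390-128062689 and chr7:128129300-128129599 on the plus strand (RefSeq, GRCm38.p6).
Itgam: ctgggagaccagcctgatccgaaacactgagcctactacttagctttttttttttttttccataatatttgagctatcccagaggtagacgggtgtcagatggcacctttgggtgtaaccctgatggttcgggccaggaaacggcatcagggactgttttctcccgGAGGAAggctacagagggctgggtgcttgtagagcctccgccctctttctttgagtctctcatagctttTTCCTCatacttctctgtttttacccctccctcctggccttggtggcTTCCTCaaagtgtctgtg
Itgax: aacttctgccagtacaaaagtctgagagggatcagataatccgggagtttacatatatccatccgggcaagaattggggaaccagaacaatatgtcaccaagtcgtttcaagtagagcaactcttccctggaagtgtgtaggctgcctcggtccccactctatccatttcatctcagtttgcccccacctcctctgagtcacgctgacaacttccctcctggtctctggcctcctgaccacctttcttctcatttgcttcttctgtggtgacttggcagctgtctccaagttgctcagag
Itgam had 3 matches and Itgax none, and 28.276% of all promoter windows had at least 1. The pair was picked for display after the matches were seen. Only these exact letters were searched, so a window without a match may still hold a PU.1 site. Of the other members with a RefSeq window, Cd44 had 2 matches and Itga4 none.

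Itgax, next to Itgam, gave the least even response. It was at 73.5, 76.2, 15.9 and 17.2 CPM with TNF in animals 1 to 4, against 19.2, 20.9, 16.6 and 19.1 CPM with vehicle. Animals 1 and 2 were far above every vehicle library and animals 3 and 4 were within or below the vehicle range. The log2 difference was 1.93 and 1.86 in animals 1 and 2, but -0.06 and -0.15 in animals 3 and 4. The group means gave a log2 change of 1.28 (SE 0.47, adjusted p = 0.213, edgeR), and the model with the block gave 1.08 (SE 0.30, adjusted p = 0.0179), a call that was lost when animal 1 or animal 2 was left out (adjusted p up to 0.182) and in DESeq2 with the block (adjusted p = 0.052). With PFM037 added to TNF the same mice were high, at 48.1, 56.0, 19.0 and 20.6 CPM in animals 1 to 4, against 24.8, 22.5, 20.2 and 22.0 CPM with PFM037. The difference between the mice was not tested. The summed dendritic markers, 7 genes, were at 66.6, 52.2, 55.5 and 45.6 CPM with TNF, against 32.3, 34.6, 45.6 and 45.4 CPM with vehicle in animals 1 to 4. Within that list Ccr7, a chemokine receptor of migrating dendritic cells, was at 25.1 ± 6.61 CPM with TNF and 6.62 ± 2.98 CPM with vehicle, whereas Cd209a was at 0.768 ± 0.262 and 2.31 ± 1.11 CPM and Flt3 at 16.8 ± 1.65 and 19.2 ± 4.07 CPM in the same order, and the genes of the list did not all move one way. Averages of at least 1 CPM were reached by 4 of its genes with TNF and 6 with vehicle, and its part in the level of Itgax was not tested. Xcr1, a marker of cross-presenting dendritic cells, was at 0 in every vehicle library and averaged 0.0337 CPM overall.

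**Figure D2:**
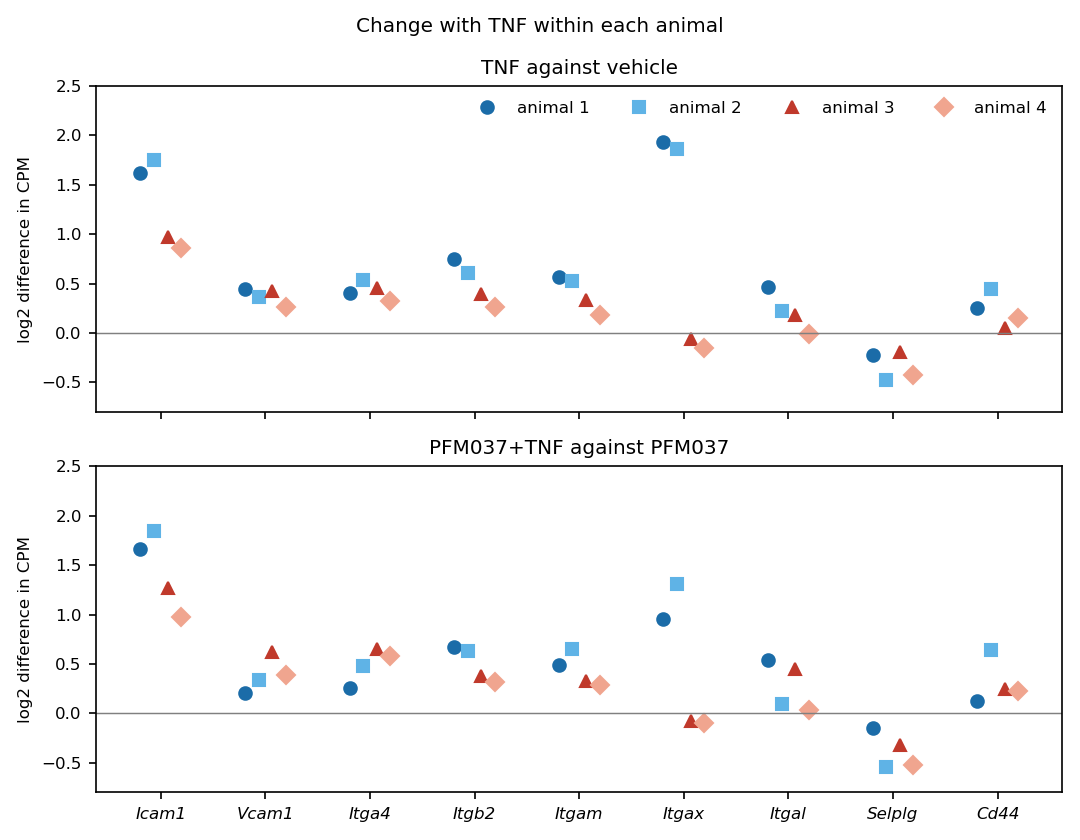
Log2 difference in CPM within each mouse, for TNF minus vehicle (top) and PFM037+TNF minus PFM037 (bottom), with a symbol per mouse. Icam1 is above 0.8 in all 8 differences, Itgax is above 0.9 in animals 1 and 2 and just under 0 in animals 3 and 4, and Selplg is below 0 in all 8.

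Itgal, the alpha chain of LFA-1, was not called for TNF. It ranged from 300 to 443 CPM with TNF, against 218 to 444 CPM with vehicle, and its log2 change was 0.19 (adjusted p = 0.781, edgeR) or 0.21 with the block (95% interval 0.01 to 0.41, adjusted p = 0.139). Summed per kilobase of exon, the 3 alpha chains Itgal, Itgam and Itgax came to 573 ± 8.06 with TNF, against 440 ± 60.3 CPM per kilobase with vehicle. Itgb2 per unit of that sum was 1.15 ± 0.09 with TNF and 1.06 ± 0.09 with vehicle. Itgam made up 88.0% ± 1.07 of the alpha chain sum with TNF and 87.4% ± 2.05 with vehicle, while Itgax took 1.66% ± 1.22 and 0.91% ± 0.18. Itgam thus led the RNA of these 3 alpha chains in both groups, and the Itgax share spread more with TNF, from 0.585% to 2.81%. Other alpha chains were not part of the sum.

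Vcam1 and its receptor chain Itga4 differed more between mice than between treatments. Vcam1 was at 47.8, 70.5, 35.7 and 29.3 CPM with TNF in animals 1 to 4, against 35.1, 54.6, 26.5 and 24.4 CPM with vehicle. Itga4 was at 118, 137, 251 and 318 CPM with TNF, against 88.8, 94.3, 183 and 253 CPM with vehicle. For Vcam1 both libraries of animals 1 and 2 were above both of animals 3 and 4 in each of the 4 groups, and for Itga4 both were below in each. EdgeR without the block called neither gene (adjusted p = 0.769 and 0.759), although each was higher with TNF in 4 of 4 mice. With the block the log2 change was 0.38 for Vcam1 (SE 0.09, adjusted p = 0.00763) and 0.43 for Itga4 (SE 0.08, adjusted p = 0.00155). Both calls held when any animal was left out of the blocked model.

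Several lists of marker genes of other cells divided the mice in the same way. Those of mast cells, basophils and eosinophils summed to 243 to 463 CPM in the 8 libraries of animals 1 and 2, but to 97.3 to 112 CPM in those of animals 3 and 4. Neutrophil markers summed to 10700 to 20100 CPM and to 7550 to 10300 CPM, and lymphocyte markers to 18.4 to 43.2 CPM and to 11.9 to 15.6 CPM, in the same order. Over the 16 libraries S100a9 averaged 4660 CPM and S100a8 3540 CPM, where the neutrophil sum averaged 11800 CPM. Nkg7 averaged 12.2 CPM, where the lymphocyte sum averaged 21.4 CPM. Each of these sums thus mostly follows the genes just named. Endothelial markers were lower in animals 1 and 2, at 11.3 to 16.6 CPM, than in animals 3 and 4, at 32.1 to 42.6 CPM. Kdr averaged 19.1 CPM over the 16 libraries, where the endothelial sum averaged 25 CPM. Dendritic markers (32.3 to 68.4 CPM and 44.2 to 55.5 CPM) and stromal markers (2.37 to 8.81 CPM and 2.86 to 6.65 CPM) overlapped between animals 1 and 2 and animals 3 and 4, again in that order. Monocyte and macrophage markers overlapped over all treatments, at 22000 to 41100 CPM and 30000 to 42600 CPM. With vehicle they did not, at 25700 and 24600 CPM against 31900 and 34900 CPM. Nor did they with PFM037 or with PFM037+TNF, animals 1 and 2 being lower, whereas with TNF they overlapped. The part of these lists in the levels of Vcam1, Itga4 and Itgax was not tested. Vcam1 is on chromosome 3 at 116109949 to 116129688 (minus strand) and Itga4 on chromosome 2 at 79255426 to 79333123 (plus strand). Opposite-strand genes overlap 61 and 1124 of their exon bases and had 44 and 177 counts over all libraries, against 11404 for Vcam1 and 45646 for Itga4.

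Selplg, the ligand that lets leukocytes roll on selectins, was the member that fell. It was at 167, 172, 226 and 202 CPM with TNF in animals 1 to 4, against 196, 239, 258 and 270 CPM with vehicle. The groups overlapped, but each mouse was lower with TNF, by 0.23, 0.48, 0.19 and 0.42 on the log2 scale. The change was -0.33 without the block (SE 0.13, adjusted p = 0.274, edgeR) and -0.33 with it (SE 0.08, adjusted p = 0.00565), and the blocked call was lost without animal 4 (adjusted p = 0.0622). Among the marker lists of other cells, those of neutrophils and lymphocytes were lower in each mouse too. Dendritic markers and the very low stromal markers were higher in each mouse. Within the dendritic list Ccr7 averaged 25.1 CPM with TNF and 6.62 CPM with vehicle, while the averages of its other genes went both ways. Endothelial markers and those of mast cells, basophils and eosinophils went both ways among the mice. Neutrophil markers summed to 10700, 12000, 8880 and 7550 CPM with TNF in animals 1 to 4, against 11000, 18200, 9540 and 8610 CPM with vehicle, and lymphocyte markers to 18.4, 31.1, 11.9 and 13.4 CPM with TNF, against 24.4, 37.5, 15.6 and 14.3 CPM with vehicle. As above, S100a8 and S100a9 gave most of the neutrophil sum, and Nkg7 most of the lymphocyte sum. The part of both lists in the fall of Selplg was not tested. Selplg lies on chromosome 5 at 113818536 to 113832644 (minus strand).

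Cd44, which binds hyaluronan and can also carry selectin ligands, was at 711, 626, 600 and 622 CPM with TNF, against 596, 461, 581 and 559 CPM with vehicle. The groups did not overlap and each mouse was higher with TNF, yet the log2 change of 0.22 passed in neither edgeR model (adjusted p = 0.385 without and 0.0716 with the block). DESeq2 with the block did call it (adjusted p = 0.0298). In all, 4 of the 9 genes had TNF and vehicle libraries that did not overlap, against 8.25% of all genes. Cd44 lies on chromosome 2 at 102811141 to 102901665 (minus strand).

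**Figure D3:**
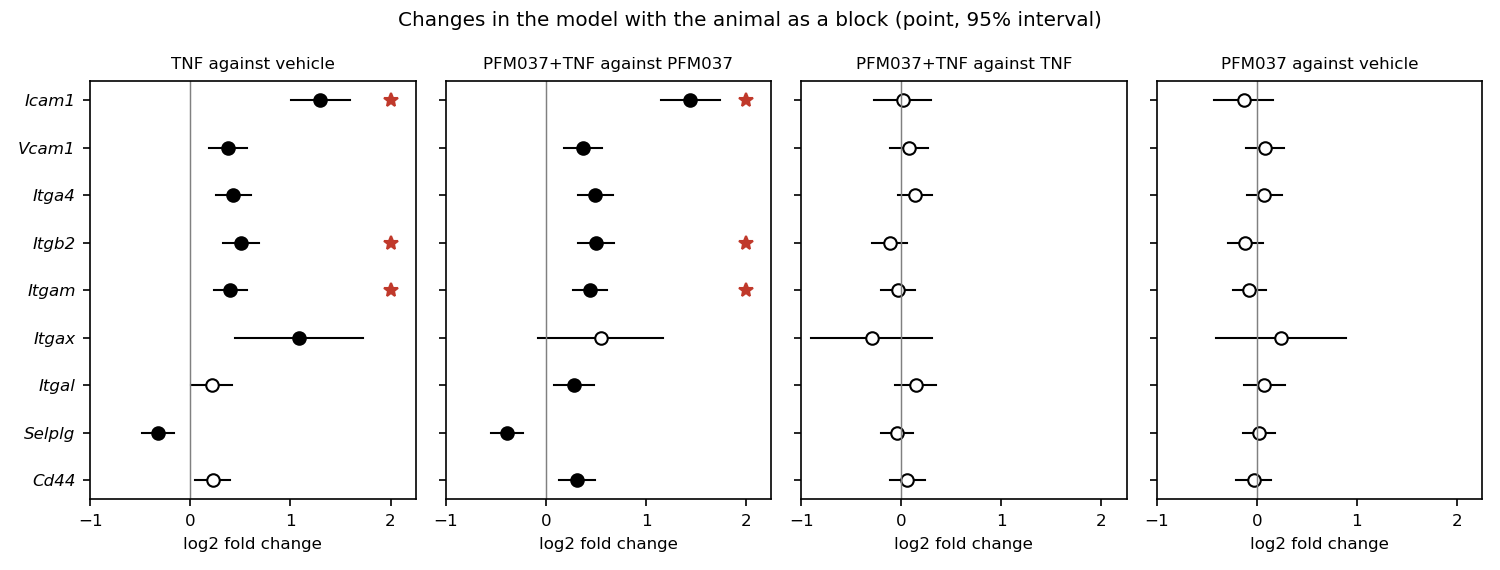
Log2 fold changes of the 9 genes in 4 comparisons, from the edgeR model with the mouse as a block, with 95% intervals; filled points passed an adjusted p of 0.05, and a star marks genes that also passed without the block. With TNF, in the left 2 panels, 7 and 8 genes pass; with PFM037, in the right 2 panels, none does and each interval includes 0.

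The change with TNF was also measured in the presence of PFM037, in libraries separate from those above. They came from the same 4 mice and were fitted in the same model, so this is not a repeat in other animals. Icam1 was at 147, 146, 124 and 115 CPM with PFM037+TNF in animals 1 to 4, against 46.1, 40.7, 51.5 and 58.4 CPM with PFM037, a rise of 2.70-fold (log2 1.43, SE 0.15, adjusted p = 0.000121, edgeR). Itgb2 averaged 1860 ± 184 CPM with PFM037+TNF and 1310 ± 56.0 CPM with PFM037 (log2 0.50, SE 0.10, adjusted p = 0.014). Itgam averaged 2470 ± 145 CPM with PFM037+TNF and 1830 ± 142 CPM with PFM037 (log2 0.43, SE 0.10, adjusted p = 0.0344). These 3 genes were again the ones called without the block, against 2.25% of all genes tested, and their groups, like those of Cd44, did not overlap, against 9.18% of all genes. The Itgb2 call was lost without PFM037+TNF 2 or PFM037 1 (adjusted p up to 0.0544), and the Itgam call in 6 of 8 fits that left out a library (adjusted p up to 0.114). Both were also lost with no filter and with only the groups compared.

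With the block, 8 of the 9 genes were called in that comparison, against 20.4% of all genes. Vcam1 had a log2 change of 0.37 (adjusted p = 0.00837, edgeR) and Itga4 of 0.49 (adjusted p = 0.000491). Selplg fell in 4 of 4 mice, to 186 ± 12.3 CPM with PFM037+TNF, against 244 ± 36.6 CPM with PFM037 (log2 -0.39, adjusted p = 0.00177). Cd44, at 664 ± 42.3 CPM with PFM037+TNF and 538 ± 57.7 CPM with PFM037, rose by 0.31 (adjusted p = 0.0145), and Itgal passed narrowly at 0.28 (adjusted p = 0.0484). With single animals left out of the blocked model, the Itgal call was lost in all 4 fits (adjusted p up to 0.237), that of Cd44 without animal 2 or 4 (up to 0.0772) and that of Vcam1 without animal 3 or 4 (up to 0.0588). Itgax was the exception, with a log2 change of 0.55 and an interval from -0.08 to 1.18 (adjusted p = 0.21). Monocyte and macrophage markers, a sum set mostly by Lyz2, were again higher in each mouse. They came to 32900, 33200, 38100 and 40700 CPM with PFM037+TNF in animals 1 to 4, against 23000, 22000, 30000 and 33100 CPM with PFM037. These ranges overlapped too, and the part of the markers was again not tested.

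PFM037+TNF was also set against the vehicle libraries that the TNF comparison above had used. Without the block only Icam1 was called, against 2.63% of all genes, with a log2 change of 1.30 (SE 0.15, adjusted p = 0.000318, edgeR). Itgb2 narrowly missed at 0.39 (adjusted p = 0.0513), as did Itgam at 0.36 (adjusted p = 0.0747). With the block 8 of 9 genes were called, against 24.8% of all genes. Itgax, at 0.79, was again the one that was not (adjusted p = 0.0635), although it was called without animal 3 or without animal 4.

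PFM037 was compared with vehicle, and PFM037+TNF with TNF, to see what the compound changes without and with the cytokine. None of the 9 genes was called in either, with or without the block. Over all genes, PFM037 against vehicle gave 0% called without the block and 0.0794% with it, and PFM037+TNF against TNF gave 0% and 1.36%. At an unadjusted p under 0.05, edgeR passed 223 of all genes for PFM037 against vehicle and 515 for PFM037+TNF against TNF without the block, and 0 of the 9 genes in either. DESeq2 and limma-voom called 0 of the 9 genes as well.

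In the blocked model, log2 changes with PFM037 against vehicle ran from -0.13 for Icam1 to 0.24 for Itgax. Icam1 averaged 49.2 ± 7.54 CPM with PFM037 and 53.9 ± 11.0 CPM with vehicle, and the interval of its change was -0.43 to 0.17. For Itgb2, at -0.11, the interval was -0.29 to 0.06, and for Itgam, at -0.08, it was -0.24 to 0.09. That of Itgax was wide, from -0.40 to 0.89. The upper bounds leave room for rises of up to 1.85-fold in Itgax and 1.12-fold in Icam1.

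With TNF present, the changes with PFM037 ran from -0.30 for Itgax to 0.14 for Itgal. Icam1 averaged 133 ± 16.0 CPM with PFM037+TNF and 131 ± 14.3 CPM with TNF, a log2 change of 0.01 (interval -0.27 to 0.30). Itgax averaged 36.0 ± 18.9 CPM with PFM037+TNF and 45.7 ± 33.6 CPM with TNF. It was lower with PFM037+TNF in animals 1 and 2, by 0.61 and 0.44 on the log2 scale, and higher by 0.26 in each of animals 3 and 4. Itgb2 was lower in 4 of 4 mice, by 0.06, 0.13, 0.19 and 0.10, and did not pass (log2 -0.12, interval -0.29 to 0.06, adjusted p = 0.53 with the block). Itga4 and Itgal were higher in 4 of 4 mice and did not pass either (adjusted p = 0.455 and 0.501 with the block). For all genes, 23% had the same sign in every mouse in this comparison.

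The interaction asks whether the change with TNF differs when PFM037 is present. No member was called in either model, and no gene of the 13856 was, with 91 genes at an unadjusted p under 0.05 without the block and 383 with it. The lowest value was -0.54 for Itgax (interval -1.42 to 0.35) and the highest 0.15 for Icam1 (interval -0.27 to 0.56), each with an adjusted p of 1 in edgeR. For Itgb2 the value was 0.00 (interval -0.25 to 0.25), and for Itgam 0.04 (interval -0.20 to 0.28).

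The partners, activators and modifiers of the 9 genes were taken from 6 lists of adhesion genes, with 107 of the 125 genes in the table tested. For TNF against vehicle, 9 were higher and 2 lower without the block, 10.3% of the 107, against the 2.68% of all genes. With the block 21 were higher and 19 lower, 37.4%, against 19.4%. The median log2 change of the 107 genes was -0.04, close to that of all genes, and genes were called in both directions. The lists were chosen with earlier results of these data known, so their shares of called genes are a description only.

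Among the integrin subunits, 1 of 14 rose and 1 fell without the block, and 3 rose and 5 fell with it. Itgb8, whose integrin with alpha v activates latent TGF-beta, rose 13.4-fold, to 6.68 ± 4.11 CPM with TNF, against 0.511 ± 0.11 CPM with vehicle (log2 3.75, SE 0.50, adjusted p = 0.000721, edgeR). Itgb7, a partner of Itga4, fell to 130 ± 20.5 CPM with TNF, against 200 ± 17.4 CPM with vehicle (log2 -0.63, SE 0.12, adjusted p = 0.0123). Itgb1, the other partner of Itga4, was at 658 ± 79.6 CPM with TNF and 541 ± 99.4 CPM with vehicle, and rose by 0.29 in the blocked model alone (adjusted p = 0.00811). The laminin-binding chain Itga6 and the vitronectin-binding chain Itgb5 fell in the blocked model, by 0.78 (adjusted p = 9.58e-07) and 1.20 (adjusted p = 3.53e-06). The fibronectin receptor chain Itga5 rose there by 0.57 (adjusted p = 7.07e-05), and in PFM037+TNF against PFM037 it passed in both models (1.70-fold, adjusted p = 0.0119 without the block).

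Of 34 genes that activate integrins or link them to the cytoskeleton, 3 rose and 0 fell without the block, and 6 rose and 4 fell with it. Fgr, a Src-family kinase that acts below leukocyte integrins, rose 2.05-fold (adjusted p = 0.0247, edgeR). It averaged 401 ± 31.2 CPM with TNF and 196 ± 73.7 CPM with vehicle. Rap1a, a small GTPase that switches integrins on, rose 1.42-fold (adjusted p = 0.0239). Talin (Tln1), the most abundant of the list, had a log2 change of 0.04 (adjusted p = 0.956).

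The 15 genes for selectins, their ligands and the enzymes that decorate them gave 0 rises and 1 fall without the block, and 0 rises and 4 falls with it. Gcnt1, which builds the branched sugar on which Selplg depends for selectin binding, fell to 117 ± 8.19 CPM with TNF, against 159 ± 11.2 CPM with vehicle (log2 -0.45, SE 0.09, adjusted p = 0.0131, edgeR). Cd34, which can carry selectin ligands, fell in the blocked model by 0.61 (adjusted p = 1.36e-05). Fut7, the fucosyltransferase that completes selectin ligands, had a log2 change of -0.32 for TNF against vehicle (adjusted p = 0.379) and fell by 0.73 for PFM037+TNF against PFM037 (adjusted p = 0.0181).

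Among 13 other immunoglobulin-family and junctional proteins 1 rose and 0 fell without the block, and 3 rose and 1 fell with it. Esam, a junction protein, rose 4.49-fold, to 21 ± 12.6 CPM with TNF, against 4.72 ± 1.91 CPM with vehicle (adjusted p = 0.00744, edgeR). Of 17 genes around CD44 and hyaluronan, 2 rose and 0 fell without the block, and 3 rose and 3 fell with it. Those that rose in both models were Layn, a hyaluronan receptor (2.42-fold, adjusted p = 0.0417), and Has1, a hyaluronan synthase that remained very low, at 1.52 ± 0.45 CPM with TNF and 0.131 ± 0.16 CPM with vehicle (adjusted p = 0.00754). The cytoskeletal linker Ezr rose in the blocked model by 0.42 (adjusted p = 0.00246).

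Proteases that cut adhesion molecules off the surface, with their regulators, 14 genes in all, gave 2 rises and 0 falls without the block, and 6 rises and 2 falls with it. Rhbdf2, which guides Adam17 to the surface, rose 1.31-fold (adjusted p = 0.0462, edgeR). Adam17, the sheddase of the TNF precursor, was at 444 ± 51.5 CPM with TNF and 283 ± 79.1 CPM with vehicle, and rose by 0.69 in the blocked model alone (adjusted p = 2.62e-05). For PFM037+TNF against TNF, 0 of the 107 genes were called without the block and 4 with it, 3.74%, against 1.36% of all genes. All 4 were higher, and among them were Cd34 (log2 0.31, adjusted p = 0.044), the cytoskeletal linker Rdx (0.26, adjusted p = 0.0493) and the gelatinase Mmp9 (0.70, adjusted p = 0.0234). For PFM037 against vehicle none of the 107 was called in either model.

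**Figure D4:**
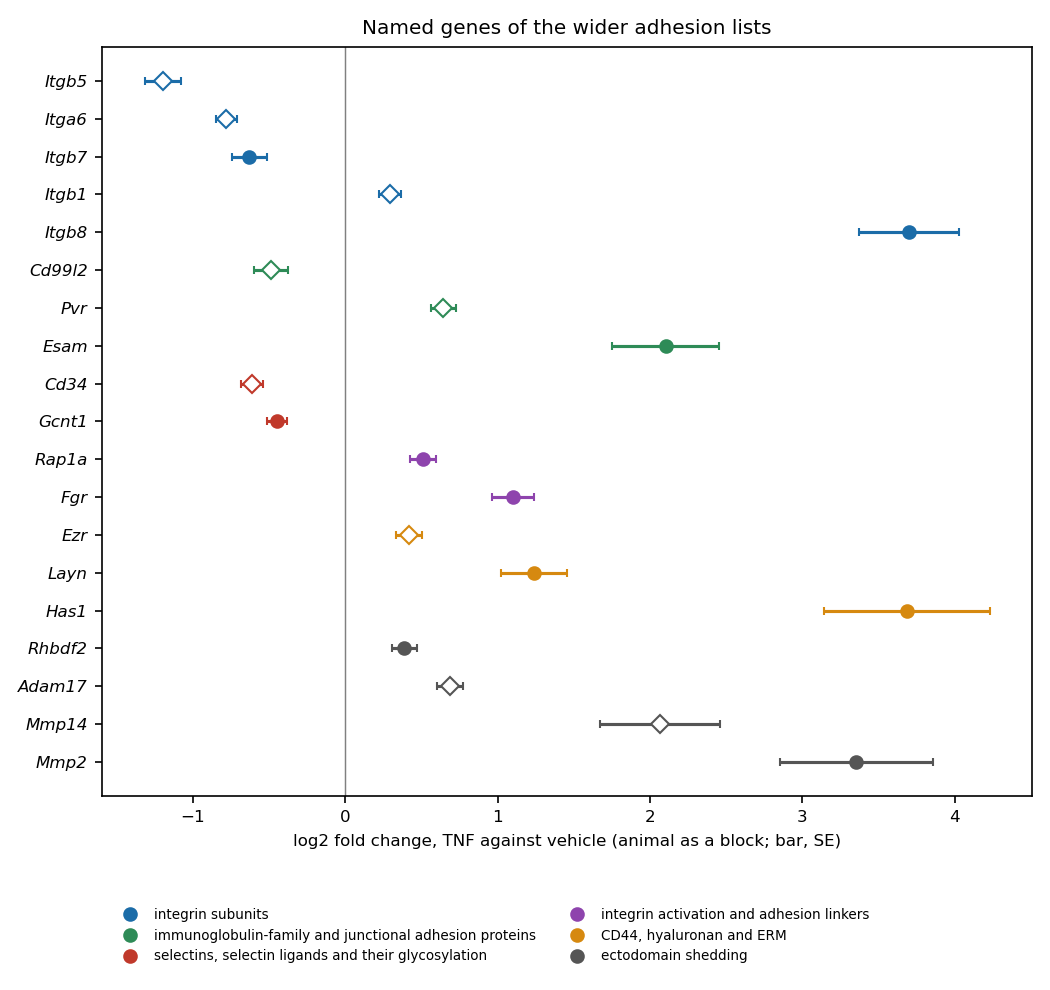
Log2 fold change for TNF against vehicle, with SE, of genes named by rule from the wider adhesion lists that were called in at least 1 model, from the model with the mouse as a block. Filled circles were also called without the block. Itgb8, Has1 and Mmp2 lie furthest right and are low in CPM, and Itgb5 lies furthest left.

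The genes whose log2 CPM ran most like that of a member over the 16 libraries were searched among 9800 genes with a mean of at least 5 CPM. These correlations rest on libraries that share mice and treatments, and are given as a description. Icam1 ran closest to Ralgds (Pearson r = 0.987) and to Relb, an NF-kB subunit (0.986). Vcam1 ran closest to Hsd11b1 (0.965), Itga4 to the insulin receptor gene Insr (0.978) and Itgal to the phosphatase gene Ptpn6 (0.964). With each mouse's mean taken out, Itgam ran closest to Fgr (0.991), Itgb2 to the transcription factor gene Ets2 (0.994), Itgal to the NF-kB subunit gene Nfkb1 (0.963) and Icam1 to Nadk (0.999). Between members, Icam1 and Itgam had an r of 0.965, Icam1 and Itgb2 0.949, and Icam1 and Selplg -0.689, while Vcam1 and Itga4 had -0.566. With the mouse's mean taken out, Vcam1 and Itga4 had 0.946.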

How the data were processed

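The deposited table holds the authors' raw read counts per gene for 16 libraries, 4 mice in each of 4 treatments. Per the labels' protocols, 500 ng of RNA went into a stranded, poly(A)-selecting kit, with single reads of 75 bases. The submitters' processing notes name STAR 2.5.3a, featureCounts and limma with mm10 (GRCm38); the sources used here do not give the annotation release or strand setting, so reads of overlapping genes are uncertain. Of the rows, 26 carry a date in place of a symbol.

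The test was that of edgeR 4.0.16 in R 4.3.3 (quasi-likelihood F-test, TMM, filterByExpr with minimum count 10 and total 15), in a single model over all 16 libraries, two-sided, with Benjamini-Hochberg adjustment over 13856 genes and a threshold of 0.05. The code was tested on simulated data. Smallest chi-square per degree of freedom between libraries of a group was 7.01 over 24 pairs, so none was a duplicate. The labels give the same 4 mice in every group, so a model with the animal as a block (pairing) was the alternative; deviations of libraries from the same mouse correlated at 0.477 to 0.754, against -0.651 to 0.59 for libraries of different mice in different groups. Other alternatives were DESeq2 1.42.0 or its size factors, library size alone, no or a stricter filter (5 CPM in 4 libraries), limma-voom (limma 3.58.1), only the groups compared, single libraries, single mice or pairs of mice left out, and coding length in place of exon length.

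All 9 members were named in every comparison. From each wider list the rule named, in either model, the 3 called genes with the smallest adjusted p, and the gene with the highest mean CPM; other values of those genes are given where a sentence needs them, and some genes the rule named are not reported here. Members and lists were chosen with earlier results of these data known. The list symbols Cd99, Cd58, Cd43 and Cemip2 were not matched. Coordinates and lengths are from GENCODE for GRCm38, promoters from RefSeq (GRCm38.p6), which matched 5 of 9 members.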

Additional observations from a re-analysis of the deposited data

How the results depend on the processing

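No more than 9 genes were counted here, so small shifts around the threshold move the counts of called members. Of the 3 called for TNF against vehicle, 1 (Icam1) was called with no filter and with only the groups compared. With library size alone 2 (Icam1 and Itgb2) were called, and 2 to 3 with a library left out. For PFM037+TNF against PFM037, of 3, it was 1 with no filter, 1 with only the groups compared, and 1 to 3 with a library left out. For PFM037+TNF against vehicle, of 1, it was 2 with DESeq2 size factors, 3 with the stricter filter, 3 with DESeq2, 2 with limma-voom, and 1 to 2 with a library left out. With the replicate block the count was 7 for TNF against vehicle, 8 for PFM037+TNF against PFM037 and 8 for PFM037+TNF against vehicle. In the same order of comparisons it was 7, 7 and 8 with the block and library size alone, and 7, 8 and 8 with the block in DESeq2, where for TNF against vehicle Cd44 was called and Itgax was not. Without animal 1, 2, 3 or 4 the blocked counts were 6, 6, 7 and 6 for TNF against vehicle, 7, 6, 6 and 5 for PFM037+TNF against PFM037, and 7, 7, 9 and 8 for PFM037+TNF against vehicle. With animals 1 and 2 only, the blocked counts were 6, 4 and 7 in the order of comparisons above, and with animals 3 and 4 only they were 6, 7 and 4. The pairs of mice are not in the labels but were drawn from levels seen in these same data, and they leave fewer libraries. Counts for a pair are thus no separate evidence that the mice differ. Shares of all genes called are given above only for the main models with and without the block. The other counts here have no such share beside them. The causes of these shifts were not tested. The count was 0 under every alternative run for the interaction and for both comparisons of PFM037 (against vehicle, and with TNF against TNF alone).

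Changes of sign, on the log2 scale, occurred mostly among values near 0 that passed in no model. For Itgax with TNF, the block with animals 3 and 4 only gave -0.088 against vehicle and -0.079 for PFM037+TNF against PFM037. For PFM037 against vehicle, Itga4 was under 0 by less than the third decimal (0.000) and was above it by as little (0.000) with DESeq2 size factors, 0.041 with library size alone, 0.001 with the stricter filter and 0.070 with limma-voom. With the block it was 0.072, or 0.11 with library size alone, 0.074 in DESeq2, 0.031, 0.13 and 0.16 without animal 1, 3 and 4, and 0.29 in animals 1 and 2 only. Cd44 became 0.010 with library size alone, 0.008 with the block as well, and 0.028 in animals 1 and 2 only. Vcam1 was -0.032 in the block without animal 1 and -0.18 in animals 3 and 4 only, Selplg -0.013 without animal 2 and -0.012 in animals 3 and 4 only, Itgal -0.089 in animals 3 and 4 only and Itgam 0.000 in animals 1 and 2 only. With a library left out, the ranges there were -0.23 to 0.34 for Itga4, -0.10 to 0.035 for Cd44, -0.21 to 0.42 for Vcam1, -0.069 to 0.12 for Selplg, -0.11 to 0.20 for Itgal and -0.13 to 0.004 for Itgam.

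For PFM037+TNF against TNF with the block, Icam1 was 0.000 without animal 3 and -0.006 in animals 3 and 4 only, and Selplg 0.001 without animal 3 and 0.040 in animals 1 and 2 only. Itgam was 0.007 in animals 1 and 2 only, and in animals 3 and 4 only Vcam1 was -0.046 and Itgax 0.25. With a library left out, Icam1 ran from -0.044 to 0.080, Selplg from -0.12 to 0.035, Vcam1 from -0.24 to 0.38, Itgax from -0.65 to 0.003 and Itga4 from -0.14 to 0.41. For the interaction, Itgb2 was 0.004 with no filter, 0.005 without animal 1 and 0.007 in animals 3 and 4 only, and Vcam1 0.065 without animal 1 and 0.14 in animals 3 and 4 only. Itgal was -0.002 without animal 3 and -0.036 in animals 1 and 2 only, Itga4 -0.012 without animal 4 and -0.11 in animals 1 and 2 only, and Itgax 0.010 in animals 3 and 4 only. With a library left out, its ranges were -0.057 to 0.052 for Itgb2, -0.37 to 0.31 for Vcam1, -0.077 to 0.24 for Itgal, -0.22 to 0.41 for Itga4, -0.16 to 0.021 for Selplg and -0.040 to 0.093 for Itgam. The smallest adjusted p among the 9 genes in these 3 comparisons, over all alternatives, was 0.0825 (Itgax, PFM037+TNF against TNF, in animals 1 and 2 only).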
